A study of Mus musculus with 45 samples.

Results

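Pkd1 lies on mouse chromosome 17 and encodes polycystin-1, a large membrane protein of the primary cilium whose loss from kidney tubule cells leads to polycystic kidney disease. The genes described here are the 187 protein-coding genes with an exon inside the window from 5 Mb below to 5 Mb above Pkd1 (chromosome 17, 24549834 to 24596508, GRCm38), out of 15828 genes that passed the expression filter in both sexes. The window held 506 annotated genes of all classes. Of these window genes, 198 were in the tables of both sexes, and 11 of the 198 were set aside by name, namely Pkd1, Atp6v0c, Tsc2, Ift140, Tpsb2, Cdkn1a and the members of the Rpl, Rps and Nduf families (Rpl3l, Rpl10a, Rps2, Rps10, Ndufb10). A further gene, Sbp, was in the table of one sex and was not used. Membership thus rested on position, on presence in the expression tables of both sexes and on these exclusions by name.

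The data were translating ribosome affinity purification (TRAP) RNASeq libraries from the kidneys of 45 mice, in which ribosomes carrying a tagged L10a protein were pulled down and the attached RNA was sequenced. Noncystic mice (8 males, 7 females; wild type in the labels) were Pkd1 fl/+, Pkd1KO mice (7 males, 8 females) were Pkd1 fl/fl, and Pkd1KO+ciliaKO mice (9 males, 6 females) were Pkd1 fl/fl and also Kif3a fl/fl, Kif3a being a kinesin subunit needed to build cilia. All 3 genotypes also carried RosaEGFP-Rpl10a, Pax8rtTA and TetOCre, each hemizygous, and all received doxycycline from postnatal day 28 to day 42 and were killed on day 49, at 7 weeks. Each library came from a separate mouse. The tag and the deletions were therefore switched on in cells that express Pax8rtTA, the epithelial cells of the nephron, and the noncystic mice were treated in the same way and carried one floxed copy.

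Genes close to an engineered allele are inherited with it. Mice homozygous for a floxed allele are then also likely to be homozygous for the flanking stretch of chromosome on which the allele was made, and sequence differences in that stretch can alter the expression of neighbouring genes. In this design Pkd1KO and Pkd1KO+ciliaKO mice share the Pkd1 fl/fl genotype and differ from noncystic mice both in the loss of Pkd1 and in the number of copies of the flanking chromosome. Loss of Pkd1 and homozygosity of the flanking region therefore cannot be told apart in the comparison with noncystic mice, whereas Pkd1KO and Pkd1KO+ciliaKO mice are alike in their Pkd1 genotype.

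Each library held between 80874556 and 132958186 counted fragments, so that 3 counts, taken as the floor of detection, stood at 0.0226 to 0.0371 CPM (counts scaled to the size of the library). These floors cover counting error only. Markers of the proximal tubule were abundant, with a mean of 830.1 TPM (transcripts scaled to gene length and library size) for Lrp2. Kif3a, the second targeted gene, was at 13.8 to 25.5 CPM (median 22.5) in noncystic, 21.6 to 29.2 CPM (median 23.8) in Pkd1KO and 4.90 to 7.45 CPM (median 5.59) in Pkd1KO+ciliaKO males. The lowest noncystic male, replicate 8 at 13.8 CPM, lay between the other noncystic males (20.4 CPM or more) and the cilia knockouts. Among females, the library labelled noncystic replicate 5 had a Kif3a level of 6.69 CPM, within the range of the cilia knockouts, and the library labelled Pkd1KO+ciliaKO replicate 6 had 20.7 CPM, close to the other genotypes. Counts of called members and the log2 fold changes of the named members that passed in females are therefore also given without these 2 libraries. Pkd1 itself was at 36.3 to 84.9 CPM (median 49.3) in noncystic, 33.2 to 49.8 CPM (median 36.6) in Pkd1KO and 34.8 to 75.9 CPM (median 42.3) in Pkd1KO+ciliaKO males. Against noncystic mice its log2 fold change did not pass for Pkd1KO (-0.45 in males, -0.22 in females) or for Pkd1KO+ciliaKO (-0.13 and 0.08), but its count covers the whole gene, including parts outside the floxed segment, and is a weak check of the deletion. On the first principal component of expression (42.3% of the variance) 4 males stood apart from the other 20 males (14.35 to 40.32). Noncystic replicate 3 (-9.757) and Pkd1KO replicate 4 (-1.129) lay between the sexes, whereas Pkd1KO+ciliaKO replicates 6 (-23.68) and 8 (-30.21) lay within the range of the females (-38.36 to -12.86), and the counts of changed members in males are also given without them.

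The 187 members covered a wide range of expression. Their mean level over all mice had a median of 9.72 TPM, against 12.8 TPM over all genes in both tables. Of the members, 145 reached 1 TPM, 93 reached 10 TPM and 18 reached 100 TPM. Msrb1, a selenoprotein that repairs oxidized methionine, was the most abundant at 533 TPM, followed by Hagh (glyoxalase II, which clears products of methylglyoxal) at 461 TPM and Mettl26 at 355 TPM. Tulp1 had the lowest mean, 0.0191 TPM. Exons of 83 members overlapped those of another gene, for 72 on the opposite strand and for 26 on the same strand, and because the strand setting of the counting is not given in the sources used here, reads of such pairs may not be told apart. On the lower side of Pkd1 lay 61 members and on the higher side 126.

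The comparison of the mean of both Pkd1 fl/fl genotypes with Pkd1 fl/+ asked which neighbours of Pkd1 differed on average between these mice. A member changed in 1 fl/fl genotype alone can pass in it. In males 36 of the 187 members passed the threshold (adjusted p of 0.05 or less, edgeR quasi-likelihood test), 15 higher and 21 lower in the fl/fl mice, whereas 8.66% of all genes tested did so, 5.52% higher and 3.15% lower. The members thus held 19.25% changed genes, and the surplus was larger among the genes that fell (11.23% against 3.15%) than among those that rose (8.021% against 5.52%). In females 9 members passed (4.813%), all lower, against 1.06% of all genes, 0.526% higher and 0.532% lower. Without the 2 female libraries with discordant Kif3a, 20 members passed in females, 2 higher and 18 lower, against 3.17% of all genes, and without the 4 males that stood apart 42 passed in males, 17 higher and 25 lower, against 12.2%. The median absolute log2 fold change was 0.15 over the members and 0.12 over all genes in males, and 0.13 and 0.09 in females. An unadjusted p under 0.05 in edgeR was reached by 61 of the 187 members in males and 59 in females. The share of all genes at that level is not given for this contrast or for the pairwise comparisons. Later counts of members at that level in these comparisons are therefore not set against all genes.

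**Figure D1:**
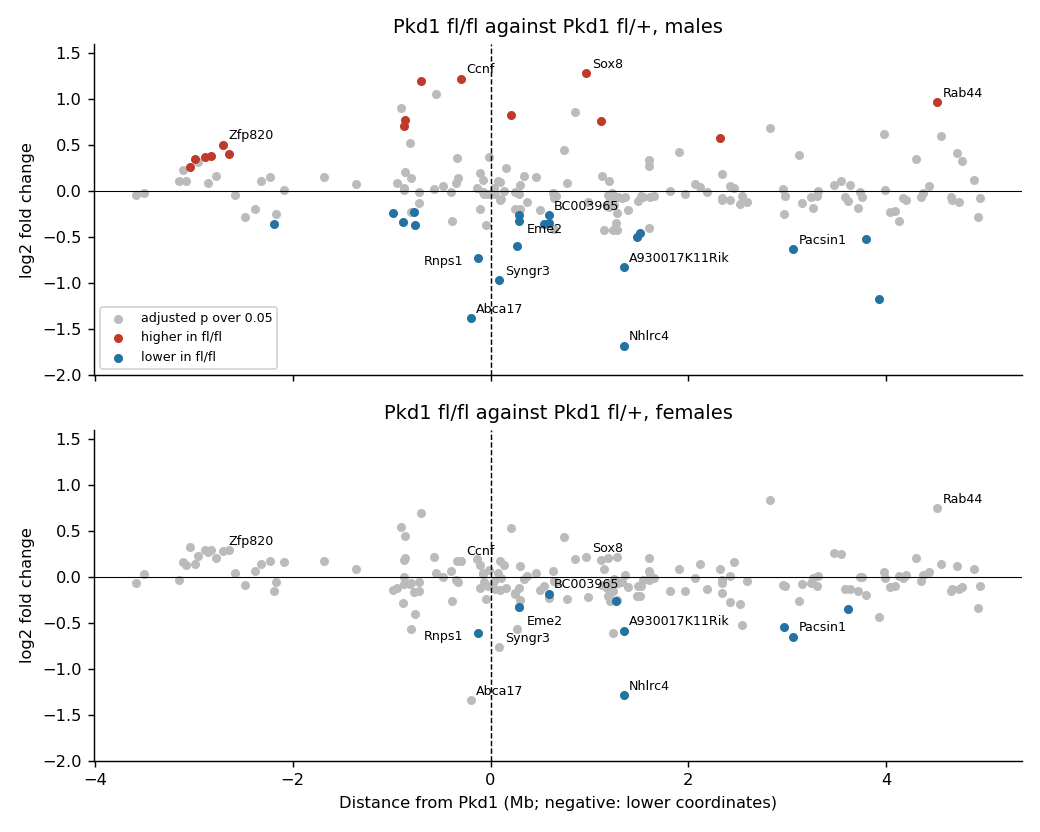
Log2 fold change of each of the 187 members between Pkd1 fl/fl mice (Pkd1KO and Pkd1KO+ciliaKO averaged) and Pkd1 fl/+ mice, males above and females below, against the distance from Pkd1 in Mb. Red points (15 in males, 0 in females) passed the threshold as higher in fl/fl mice and blue points (21 in males, 9 in females) as lower; the dashed line marks Pkd1.

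Counted genotype by genotype, 19 members passed between Pkd1KO and noncystic males (7 higher, 12 lower), against 6.3% of all genes (4.05% higher, 2.25% lower) and 26 between Pkd1KO+ciliaKO and noncystic males (15 higher, 11 lower), against 8.89% of all genes (5.63% higher, 3.26% lower). The 2 comparisons share the noncystic mice. In males 10 members passed in both with the same sign, 4 higher and 6 lower, against 2.54% of all genes (2.08% higher), and the lower ones made up 3.209% of the members against 0.463% of all genes. In females 15 members passed for Pkd1KO (3 higher, 12 lower), against 3.34% of all genes (2.02% higher, 1.32% lower), and 6 for Pkd1KO+ciliaKO (1 higher, 5 lower), against 2.54% (0.67% higher, 1.87% lower). In females 2 passed in both comparisons, Rnps1 and AI413582, both lower, against 0.15% of all genes and 0.0438% lower. Without the 2 discordant female libraries these counts were 14, 19 and 6, against 3.49%, 5.8% and 0.507% of all genes. The 10 male members were Ccnf, Tnfrsf12a, Cldn6 and Sox8 among the higher genes and Bicdl2, Rnps1, Syngr3, Nhlrc4, A930017K11Rik and Decr2 among the lower ones.

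Between Pkd1KO and Pkd1KO+ciliaKO mice, which have the same Pkd1 genotype, the members did not stand above the background. In males 3 members passed (1 higher in Pkd1KO, 2 lower), 1.604% against 3.77% of all genes (1.99% higher, 1.78% lower). In females 16 passed (7 higher, 9 lower), 8.556% against 11.7% of all genes (7.05% higher, 4.65% lower), and 10 passed without the 2 discordant libraries, against 10.4%.

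Changed members did not stop at the closest genes, but beyond 2 Mb they were in males more frequent below Pkd1 than above it. In males 20.51% of the 39 members within 0.5 Mb of Pkd1 passed, 22.54% of the 71 members between 0.5 and 2 Mb, and 15.58% of the 77 members between 2 and 5 Mb. The share was 2.439% among the 82 genes of chromosome 17 below the window, 4.167% among the 96 genes that lie 5 to 10 Mb above Pkd1, 10.38% among the 395 genes farther up, and 8.574% on the other chromosomes. In females the shares were 5.128%, 5.634% and 3.896% in the same order of distance, 0% from 5 to 10 Mb above Pkd1, and 1.023% on the other chromosomes, and without the 2 discordant libraries they were 15.38%, 11.27% and 7.792%, 0% and 3.068%. In males, 5 of the 16 members from 3 to 2 Mb below Pkd1 passed as higher and 1 as lower, with a median log2 fold change of 0.13, and in females none of them passed. Farther below, 16.67% of the 6 members passed in males and 0% in females. From 2 to 3, 3 to 4 and 4 to 5 Mb above Pkd1 the shares were 5.882%, 15.79% and 5.263% in males. In females the shares there were 5.882%, 10.53% and 0%. Of the 21 members from 0 to 0.5 Mb above Pkd1, 1 passed as higher and 4 as lower in males, with a median of -0.03.

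**Figure D2:**
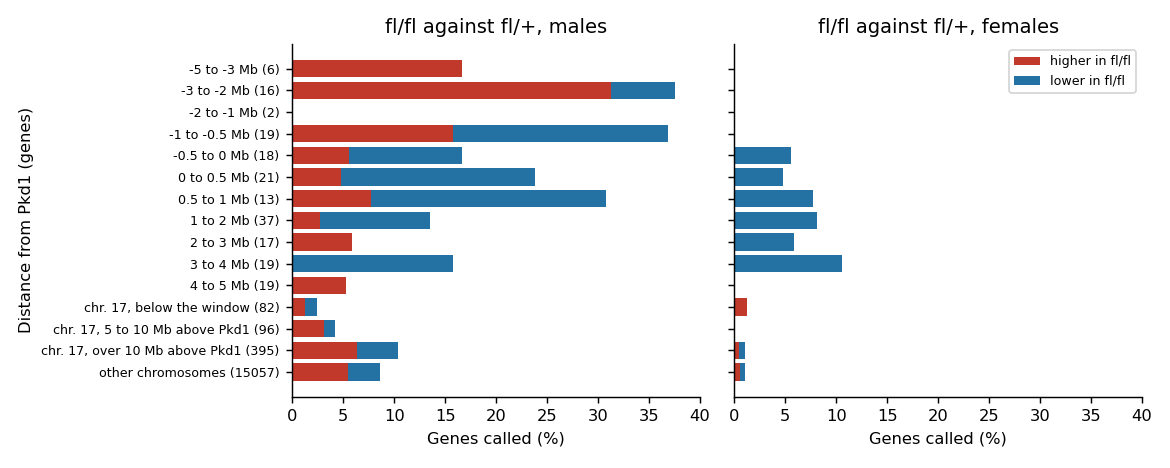
Share of genes past the threshold between Pkd1 fl/fl and Pkd1 fl/+ mice by distance from Pkd1, for males (left) and females (right), with the number of genes of each distance class in parentheses. Red is higher and blue lower in fl/fl mice; in males the class from 3 to 2 Mb below Pkd1 holds 37.5% and the genes of chromosome 17 just above the window hold 4.167%.

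The members nearest to Pkd1 did not pass. Rab26, a small GTPase of vesicle traffic that ends 15.6 kb below Pkd1, was at 0.0595 to 0.144 CPM (median 0.0981) in noncystic males, with a log2 fold change of 0.37 (SE 0.26, adjusted p = 0.398), and Nthl1, a DNA glycosylase of base excision repair 36.2 kb above Pkd1, was at 3.40 to 4.27 CPM (median 3.68) with 0.03 (SE 0.08, adjusted p = 0.851). At the edges of the window, the outermost members were Ppp2r1a, the scaffold subunit of protein phosphatase 2A, 3583.9 kb below Pkd1 (log2 fold change -0.04 in males and -0.07 in females), and Tbc1d22b, 4953.3 kb above it (-0.08 and -0.10). The first genes beyond the edges were Has1, 6694.63 kb below (0.35 and 0.34), and Rnf8, 5018.28 kb above (-0.05 and -0.08). In all 4 genes the values were within 2 standard errors of 0.

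Males and females are different mice and their fits share no library. Of the 36 members that passed in males, all 36 had the same sign in females, and among all genes that passed in males 93.8% did. In females 24 of the 36 reached an unadjusted p under 0.05, against 59 of all 187 members whatever their sign. Over all members, whatever their p, 146 of 187 (78.07%) had the same sign in both sexes, against 72.3% of all genes. The threshold was passed in both sexes by 6 members, and all 6 were lower in fl/fl mice, against 0.682% of all genes and 0.291% lower. They were Rnps1, Nhlrc4, Eme2, A930017K11Rik, BC003965 and Pacsin1. Rnps1 and Nhlrc4 passed in both sexes under every alternative tried. In females the call was lost for A930017K11Rik in 12, for Eme2 in 10, for BC003965 in 15 and for Pacsin1 in 17 of 21 fits that left out 1 mouse. Without the 2 discordant female libraries 12 members passed in both sexes, 10 lower and 2 higher, against 1.89% of all genes (0.847% lower and 1.04% higher). The added ones were Zfp53 and Prss41, both higher, and Flywch2, Abca17, Syngr3 and Decr2, all lower.

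**Figure D3:**
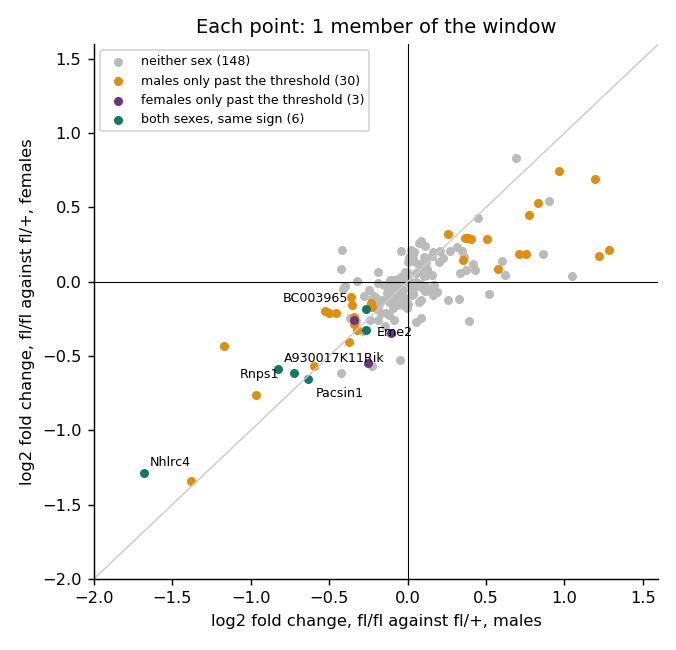
Log2 fold change between Pkd1 fl/fl and Pkd1 fl/+ mice in males (horizontal axis) against females (vertical axis), 1 point for each of the 187 members, with the line of equal change in grey. The 6 members past the threshold in both sexes, named in the plot, all lie in the lower left part.

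Rnps1 is an RNA-binding protein of splicing and of the exon junction complex, and its gene ends 123.9 kb below Pkd1 (chromosome 17, 24414565 to 24425901, plus strand, no exon overlap with another gene). Its level was 28.3 to 35.2 CPM (median 30.6) in noncystic males, 17.4 to 23.3 CPM (median 18.5) in Pkd1KO males and 16.6 to 19.9 CPM (median 18.0) in Pkd1KO+ciliaKO males. Every fl/fl male was thus below every noncystic male. The log2 fold change of the fl/fl males was -0.72 (SE 0.06, adjusted p = 1.88e-08), a level lower by a factor of 1.65. In females the range was 22.5 to 36.7 CPM (median 33.9) in noncystic, 19.6 to 22.5 CPM (median 21.4) in Pkd1KO and 17.6 to 29.9 CPM (median 20.03) in Pkd1KO+ciliaKO mice, with a log2 fold change of -0.61 (SE 0.09, adjusted p = 0.00107). The lowest noncystic value (22.5 CPM) and the highest Pkd1KO+ciliaKO value (29.9 CPM) were those of the 2 libraries with discordant Kif3a; without them the log2 fold change was -0.74 (SE 0.06) and the groups did not overlap. Between Pkd1KO and Pkd1KO+ciliaKO mice the difference did not pass, at 0.12 (SE 0.07, adjusted p = 0.396) in males and -0.04 (SE 0.10, adjusted p = 0.825) in females.

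The excluded neighbour Atp6v0c, which encodes a subunit of the proton channel of the vacuolar ATPase and lies 380.1 kb below Pkd1, had the same pattern on a larger scale, at 70.7 to 112 CPM (median 103) in noncystic males, 36.7 to 53.9 CPM (median 50.5) in Pkd1KO males and 33.8 to 56.1 CPM (median 51.9) in Pkd1KO+ciliaKO males. Its log2 fold change was -1.005 (SE 0.08) in males and -0.86 (SE 0.12) in females. In the libraries labelled noncystic female replicate 5 and Pkd1KO+ciliaKO female replicate 6, Atp6v0c stood at 47.3 and 75.6 CPM. Rnps1 and Atp6v0c were thus low together in the first and high together in the second, against their labels.

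Nhlrc4 and A930017K11Rik are neighbours 1345.7 and 1349.9 kb above Pkd1, both on the minus strand (Nhlrc4 from 25942233 to 25944961, A930017K11Rik from 25946387 to 25952565). Both passed as lower in fl/fl mice of both sexes, and for both the median was lowest in Pkd1KO and intermediate in Pkd1KO+ciliaKO mice. Nhlrc4 was at 2.76 to 4.63 CPM (median 3.39) in noncystic males, 0.451 to 0.969 CPM (median 0.799) in Pkd1KO males and 1.12 to 2.51 CPM (median 1.38) in Pkd1KO+ciliaKO males, with no overlap between the fl/fl and the noncystic males. Its log2 fold change in fl/fl males was -1.68 (SE 0.14, adjusted p = 2.97e-08), the largest decrease among the members that passed in males. Unlike Rnps1, Nhlrc4 also differed between the fl/fl genotypes, by -1.04 in males (SE 0.21, adjusted p = 0.00807) and -0.90 in females (SE 0.21, adjusted p = 0.0141), Pkd1KO being the lower. In females the values were 2.06 to 5.61 CPM (median 3.63), 0.776 to 1.79 CPM (median 1.06) and 1.54 to 3.36 CPM (median 1.97) in the same order of genotypes, and the fl/fl contrast was -1.29 (SE 0.19, adjusted p = 0.00107). These female values were -1.48 (SE 0.17, adjusted p = 3.29e-05) for the fl/fl contrast and -0.72 (SE 0.20, adjusted p = 0.0336) between the fl/fl genotypes without the 2 discordant libraries. Exons of Nhlrc4 overlap those of Pigq on the same strand, so its count is uncertain. Pigq, a subunit of the enzyme that starts synthesis of the GPI anchor, was far more abundant, at 180.5 to 235 CPM (median 204) in noncystic males, and had a log2 fold change of -0.08 (SE 0.07, adjusted p = 0.576).

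A930017K11Rik was at 8.97 to 15.3 CPM (median 11) in noncystic, 3.59 to 7.75 CPM (median 4.60) in Pkd1KO and 5.11 to 10.4 CPM (median 8.03) in Pkd1KO+ciliaKO males. All Pkd1KO males lay below all noncystic males, whereas the Pkd1KO+ciliaKO males reached into the noncystic range. The log2 fold change of fl/fl mice was -0.82 (SE 0.14, adjusted p = 4.53e-04) in males and -0.59 (SE 0.13, adjusted p = 0.0334) in females, which became -0.67 (SE 0.14, adjusted p = 0.00986) without the 2 discordant libraries. Between Pkd1KO and Pkd1KO+ciliaKO mice it was -0.54 (SE 0.19, adjusted p = 0.120) in males, which did not pass. Its exons overlap those of D630044L22Rik on the opposite strand.

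Because these neighbours fell together, the 250 bases before the start site of each are shown (RefSeq, GRCm38.p6, minus strand, written 5′ to 3′). The window of Nhlrc4 is chr17:25944932-25945181 and that of A930017K11Rik is chr17:25952566-25952815. Pigq, on the same strand, begins at 25944936, so the Nhlrc4 window also lies before the start of Pigq, which did not pass in fl/fl males. Capitals mark the matches to 5 motifs searched on both strands, namely the GC box GGGCGG, the CCAAT box, the TATA box with the letters TATAAA, the E-box with the letters CACGTG and the GLI-type motif with the letters GACCACCCA.
Nhlrc4: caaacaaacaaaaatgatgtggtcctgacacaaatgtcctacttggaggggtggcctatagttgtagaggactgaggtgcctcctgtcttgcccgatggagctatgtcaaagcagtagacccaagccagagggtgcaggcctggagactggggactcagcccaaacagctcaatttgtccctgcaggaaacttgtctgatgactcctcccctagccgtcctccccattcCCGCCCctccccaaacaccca
A930017K11Rik: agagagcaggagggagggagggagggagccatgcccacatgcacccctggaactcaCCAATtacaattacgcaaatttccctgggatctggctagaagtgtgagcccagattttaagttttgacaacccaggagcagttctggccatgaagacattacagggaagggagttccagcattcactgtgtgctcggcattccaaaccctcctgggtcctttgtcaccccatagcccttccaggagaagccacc
Nhlrc4 had 1 match, a GC box on the opposite strand, and A930017K11Rik had 1 match, a CCAAT box. Such matches are common, since 32.7% of the 32851 windows of the same length in the table held the GC box and 33.8% held CCAAT, while 12.4% held TATAAA, 6.02% the E-box and 0.225% the GLI-type motif. Both windows were poor in CG dinucleotides, with 3 in Nhlrc4 and 2 in A930017K11Rik, against a median of 6 over all windows and of 15 over the windows of the members. Windows were found for 148 of the 187 members. Among the other members that passed in both sexes, Eme2 had 32 CG dinucleotides, Pacsin1 26 and BC003965 22, and so the fall in fl/fl mice was found in members with CG-poor and with CG-rich windows.

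Eme2, a partner of the nuclease Mus81 in the repair of stalled replication forks, lies 292.0 kb above Pkd1. It was at 6.16 to 8.02 CPM (median 6.67) in noncystic, 4.73 to 5.44 CPM (median 4.98) in Pkd1KO and 5.75 to 6.92 CPM (median 6.21) in Pkd1KO+ciliaKO males. All Pkd1KO males lay below the lowest noncystic male, and the Pkd1KO+ciliaKO males overlapped with the noncystic but not with the Pkd1KO males. The fl/fl contrast was -0.26 (SE 0.06, adjusted p = 0.00594) in males and -0.33 (SE 0.07, adjusted p = 0.0296) in females or -0.38 (SE 0.07, adjusted p = 0.00579) without the 2 discordant libraries, and Pkd1KO males were below Pkd1KO+ciliaKO males (-0.29, SE 0.07, adjusted p = 0.0338). Exons of Eme2 overlap those of Spsb3 and Mapk8ip3. Spsb3, an adaptor of a ubiquitin ligase, fell in fl/fl males as well (-0.33, SE 0.10, adjusted p = 0.0351), and Mapk8ip3, a JNK scaffold, had 0.07 (adjusted p = 0.772).

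BC003965, 588.0 kb above Pkd1, was at 24.9 to 32.1 CPM (median 28.2) in noncystic, 20.1 to 25.7 CPM (median 23.5) in Pkd1KO and 20.7 to 27.6 CPM (median 24.7) in Pkd1KO+ciliaKO males. The groups overlapped, and the log2 fold change was -0.26 (SE 0.06, adjusted p = 0.00860) in males and -0.18 (SE 0.04, adjusted p = 0.0356) in females or -0.21 (SE 0.04, adjusted p = 0.0108) without the 2 discordant libraries. Pacsin1, an F-BAR protein that links endocytosis to the actin cytoskeleton, lies much farther away, 3059.0 kb above Pkd1. It was at 0.796 to 1.47 CPM (median 1.10) in noncystic, 0.521 to 1.16 CPM (median 0.602) in Pkd1KO and 0.403 to 1.05 CPM (median 0.776) in Pkd1KO+ciliaKO males, with overlap, and the log2 fold change was -0.63 (SE 0.17, adjusted p = 0.0225) in males and -0.65 (SE 0.16, adjusted p = 0.0449) in females or -0.81 (SE 0.14, adjusted p = 0.00312) without the 2 discordant libraries. Of the 187 members, Nhlrc4 and Rnps1 (1.07%) had every fl/fl male on one side of every noncystic male, against 0.24% of all genes. In females no member did so, against 0.019% of all genes, but without the 2 discordant libraries 5 did (Rnps1, Nhlrc4, Eme2, BC003965 and Pacsin1, 2.67% against 0.335%).

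**Figure D4:**
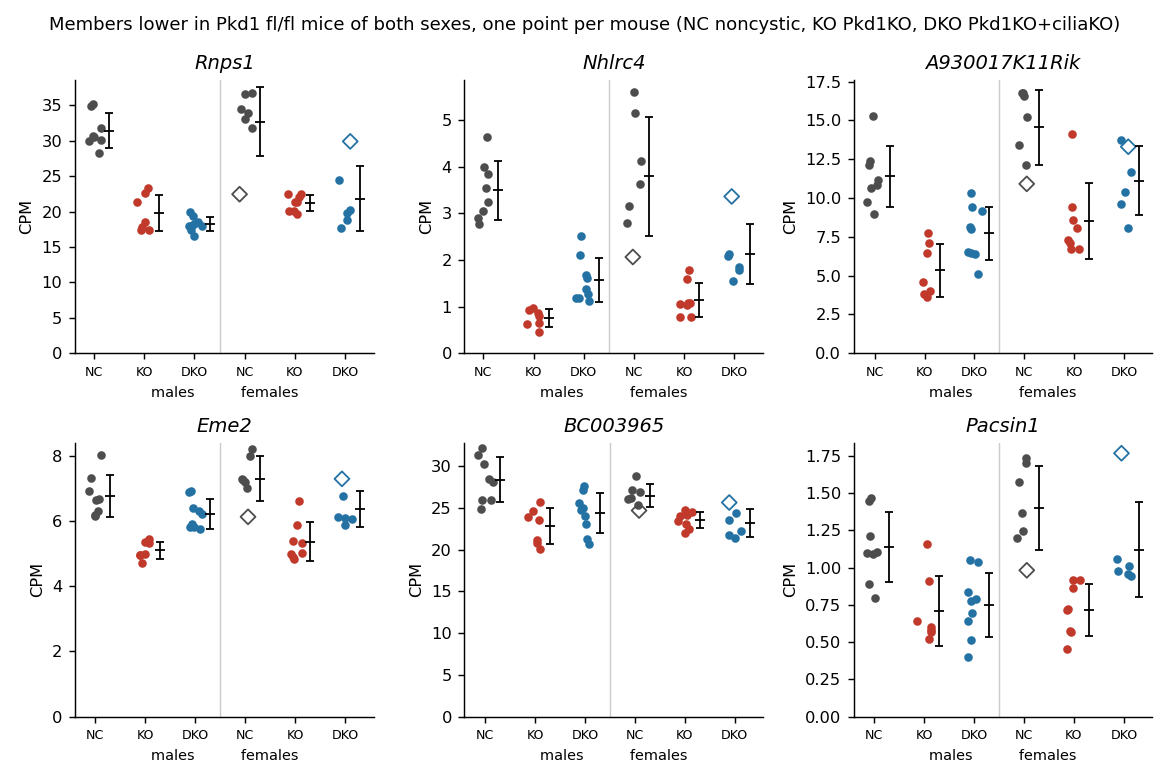
Expression in CPM of the 6 members that passed the threshold as lower in fl/fl mice of both sexes, 1 point per mouse in the 6 groups, with bars for the mean and SD. Open diamonds are the 2 female libraries whose Kif3a level went against their labels; for Rnps1 they lie at 22.5 CPM among the noncystic females and 29.9 CPM among the Pkd1KO+ciliaKO females.

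Zinc finger genes were taken by symbol (Zfp, Zscan or Zbtb), which gave 25 members, and 19 of them lie more than 2 Mb below Pkd1. Most such proteins bind DNA and many repress transposable elements, but the list also holds Zfp598, a ubiquitin ligase that acts on stalled ribosomes and is counted again among the ubiquitin genes. Of the 25 members, 6 rose and 2 fell in fl/fl males, against 5.52% higher and 3.15% lower of all genes, 17 did not pass, and the median log2 fold change was 0.11 against 0.00 over all genes tested. The 6 that rose (Zfp53, Zfp52, Zfp983, Zfp760, Zfp820 and Zfp995) lie between 3039.4 and 2639.9 kb below Pkd1. In females none of the 25 passed in edgeR and 1 was called by DESeq2, and the median was 0.13 against -0.01. An unadjusted p under 0.05 in edgeR was reached there by 8 of the 25, against 59 of all 187 members, with no share of all genes given. Zfp53 was the 1 zinc finger gene that passed without the 2 discordant female libraries, at 0.37 (SE 0.09, adjusted p = 0.0278). Zfp760 was at 7.32 to 10.8 CPM (median 9.32) in noncystic, 8.12 to 12.4 CPM (median 11.5) in Pkd1KO and 10.9 to 15 CPM (median 13.2) in Pkd1KO+ciliaKO males, so that the Pkd1KO+ciliaKO males lay above the noncystic males and the Pkd1KO males overlapped with them. Its log2 fold change was 0.38 (SE 0.09, adjusted p = 0.00554) in males and 0.29 (SE 0.10, adjusted p = 0.141) in females or 0.35 (SE 0.10, adjusted p = 0.0734) without the 2 discordant libraries. Zfp995 had 0.40 (SE 0.10, adjusted p = 0.0102) and 0.29 (SE 0.13, adjusted p = 0.293), the latter being 0.29 without the 2 discordant libraries. By genotype, 7 of the 25 rose in Pkd1KO+ciliaKO against noncystic males in edgeR, against 5.63% of all genes, and none in Pkd1KO males, against 4.05%. DESeq2 called 9 (7.57%) and 1 (6.41%) as higher in the same order. As lower, edgeR called 1 (3.26%) and 1 (2.25%), and DESeq2 called 2 (5.92%) and 3 (3.85%). Between the 2 fl/fl genotypes 4 of the 25 had an unadjusted p under 0.05 in males, with no share of all genes given. None of the 25 passed by either tool, and the male median was -0.16, Pkd1KO being the lower. These genes are close copies of each other, and how reads that match several of them were counted is not given in the sources used here, so their single values are uncertain.

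Of 23 genes of RNA processing and transcription, 1 rose and 4 fell in fl/fl males (5.52% and 3.15% of all genes), with a median of -0.06 against 0.00. Besides Rnps1, the genes that fell were Flywch1 and Flywch2, FLYWCH zinc finger genes about 0.8 Mb below Pkd1, and Unkl. Flywch1 was at 52.6 to 71.8 CPM (median 62.3) in noncystic, 45.5 to 60.2 CPM (median 49.96) in Pkd1KO and 50.3 to 58.9 CPM (median 54.9) in Pkd1KO+ciliaKO males (log2 fold change -0.23, SE 0.05, adjusted p = 0.00743). Flywch2 had -0.37 (SE 0.10) in males and -0.41 (SE 0.10, adjusted p = 0.0514) in females, or -0.48 (SE 0.10, adjusted p = 0.0146) without the 2 discordant libraries. The gene that rose was Sox8, a SoxE transcription factor, at 0.169 to 0.558 CPM (median 0.373) in noncystic, 0.473 to 2.32 CPM (median 0.649) in Pkd1KO and 0.297 to 1.28 CPM (median 0.770) in Pkd1KO+ciliaKO males (1.28, SE 0.32, adjusted p = 0.0110). In females Rnps1 alone passed among the 23, and Flywch2 passed as well without the 2 discordant libraries.

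Among 17 genes of kinase, stress and growth signalling, Tnfrsf12a rose and Fkbp5 fell in fl/fl males (5.52% and 3.15% of all genes), and the median of the list was -0.02. Tnfrsf12a, the receptor of the cytokine TWEAK, was at 11.8 to 17.8 CPM (median 14.1) in noncystic, 17.1 to 54.0 CPM (median 24.9) in Pkd1KO and 14.1 to 25.2 CPM (median 20.7) in Pkd1KO+ciliaKO males (0.71, SE 0.17, adjusted p = 0.00834), and its change in females, 0.18 (SE 0.15, adjusted p = 0.610), did not pass, nor did the 0.25 without the 2 discordant libraries. Fkbp5, a co-chaperone of the glucocorticoid receptor, varied widely within every group, from 109 to 316 CPM in noncystic males, and passed narrowly (-0.52, SE 0.17, adjusted p = 0.0479), with the call lost in 19 of 24 fits that left out 1 mouse. In females Def6 was the 1 member of the list that passed (-0.35, SE 0.08, adjusted p = 0.0454). Def6 was at -0.38 (SE 0.09, adjusted p = 0.0234) without the 2 discordant libraries, and Bak1, a protein of apoptosis, then passed as lower too.

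Of 17 genes of channels, transport and the endolysosome, 1 rose and 3 fell in fl/fl males (5.52% and 3.15% of all genes), with a median of -0.03 against 0.00. In females Pacsin1 alone passed among the 17, with a median of -0.10 against -0.01, and Abca17 passed as lower as well without the 2 discordant libraries. Clcn7, the chloride and proton exchanger of lysosomes, was at 29.2 to 39.97 CPM (median 36.5) in noncystic, 23.1 to 33.8 CPM (median 31.5) in Pkd1KO and 23.4 to 33.7 CPM (median 25.9) in Pkd1KO+ciliaKO males, and it fell with overlapping ranges (-0.36, SE 0.07, adjusted p = 0.00211). The other genes that fell were Pacsin1 and Abca17, a transporter of the ABC family near its floor. Abca17 was at 0.0360 to 0.224 CPM (median 0.0786) in noncystic and 0 to 0.0830 CPM (median 0.0313) in Pkd1KO males (log2 fold change -1.38, SE 0.42, adjusted p = 0.0385), so that its fold change depends on few counts. Rab44, a large Rab GTPase known from blood and mast cells, rose. It was at 0.108 to 0.242 CPM (median 0.149) in noncystic, 0.266 to 1.02 CPM (median 0.360) in Pkd1KO and 0.135 to 0.297 CPM (median 0.228) in Pkd1KO+ciliaKO males, and all Pkd1KO males lay above the highest noncystic male. Rab44 was higher in Pkd1KO than in noncystic mice by 1.49 (SE 0.30, adjusted p = 0.00626) in males and 1.29 (SE 0.27, adjusted p = 0.0115) in females, and higher than in Pkd1KO+ciliaKO mice by 1.07 (SE 0.28, adjusted p = 0.0410) and 1.06 (SE 0.28, adjusted p = 0.0252). The female differences were 1.30 (SE 0.29, adjusted p = 0.0174) and 1.09 (SE 0.31, adjusted p = 0.0385) without the 2 discordant libraries. Between Pkd1KO+ciliaKO and noncystic mice Rab44 did not pass, at 0.42 (SE 0.20, adjusted p = 0.201) in males and 0.22 (SE 0.24, adjusted p = 0.629) in females. Some markers of blood-derived cells were also highest in Pkd1KO mice and others were not. The mast cell gene Ms4a2 was at 0.0703 to 0.228 CPM (median 0.170) in noncystic, 0.836 to 3.49 CPM (median 1.08) in Pkd1KO and 0.324 to 1.42 CPM (median 0.685) in Pkd1KO+ciliaKO males, and its medians in females were 0.322, 3.46 and 0.957 CPM. Kit, the other measured gene of that list of 5, was at 16.7 to 24.0 CPM (median 20.8), 15.8 to 26.0 CPM (median 23.5) and 18.8 to 29.4 CPM (median 25.4) in males, and Cpa3, Mcpt4 and Cma1 were not in the tables of both sexes. Tpsab1, a mast cell tryptase and itself a member, stayed near the floor, with male medians of 0.0307, 0.0460 and 0.0571 CPM in the same order. The summed level of 4 macrophage markers was 65.72 to 92.89 CPM (median 84.95) in noncystic, 90.45 to 193.6 CPM (median 104.6) in Pkd1KO and 45.36 to 89.36 CPM (median 66.58) in Pkd1KO+ciliaKO males. Between Pkd1KO+ciliaKO and noncystic males the median log2 fold change of the 4 markers was 0.32. Of these markers 1 passed as lower there (3.26% of all genes) and 0 as higher. In females the medians of the sum were 65.2, 80.62 and 52.1 CPM in the same order of genotypes. The part of blood-derived cells in the Rab44 result was not tested, and in bulk samples more cells of a type and more RNA per cell cannot be told apart.

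Of 20 genes of mitochondria and metabolism, 1 fell in fl/fl males (3.15% of all genes lower) and none passed in females in edgeR, with medians of -0.08 and -0.13. In females 12 of the 20 had an unadjusted p under 0.05 in edgeR, in whichever direction, against 59 of all 187 members. The share of all genes at that level is not given. DESeq2 called 1 of the 20 as lower (1.25% of all genes). Without the 2 discordant libraries 4 passed in edgeR, all lower (Decr2, Fahd1, Amdhd2 and Uqcc2), against 1.64% of all genes. The gene that fell was Decr2, a peroxisomal reductase of fatty acid breakdown. It was at 70.5 to 106 CPM (median 93.6) in noncystic, 53.1 to 76.5 CPM (median 61.8) in Pkd1KO and 58.1 to 72.7 CPM (median 67.5) in Pkd1KO+ciliaKO males, overlapping at the edges, and its log2 fold change was -0.50 (SE 0.07, adjusted p = 5.33e-05). In females it was -0.21 (SE 0.07, adjusted p = 0.134), and -0.26 (SE 0.07, adjusted p = 0.0360) without the 2 discordant libraries. In fl/fl males 4 of 6 proximal tubule markers also passed as lower (3.15% of all genes), with a median log2 fold change of -0.46. By genotype, 1 of the 6 passed as lower in Pkd1KO males (2.25% of all genes) and 4 in Pkd1KO+ciliaKO males (3.26%), each against noncystic. In fl/fl females 0 of the 6 passed, with a median of -0.12. The part of this shift in the fall of Decr2 was not tested. Narfl, which assembles iron-sulfur clusters, had -0.16 (SE 0.06, adjusted p = 0.0757) in males. The 3 most abundant members did not pass in the fl/fl contrast of either sex with all libraries in edgeR, and each was called by some alternatives. Msrb1 had 0.01 (SE 0.14) in males and 0.13 (SE 0.06) in females, where limma on log2(TPM + 1) called it higher. Hagh had -0.00 (SE 0.08) and -0.18 (SE 0.06) and was called lower in females by limma voom. Mettl26 had -0.24 (SE 0.15) and -0.26 (SE 0.07). It passed as lower in females with DESeq2, with limma voom and, at -0.29 (SE 0.07, adjusted p = 0.0286), without the 2 discordant libraries, and in males without the 4 that stood apart (-0.22, adjusted p = 0.0479). Msrb1 was at 0.17 and Hagh at -0.17 in females without the 2 discordant libraries, and neither passed.

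None of the 6 genes of mTORC1 and nutrient signalling passed in the fl/fl contrast of either sex by edgeR or DESeq2. Their medians were -0.02 in males and -0.09 in females. An unadjusted p under 0.05 was reached by 2 in males and 0 in females, with no share of all genes given. The members with the smallest p in males were Telo2, which stabilizes kinases of the mTOR family (-0.20, SE 0.09, adjusted p = 0.159), and Wdr24, a subunit of GATOR2 (-0.12, SE 0.06, adjusted p = 0.203).

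Members with roles in cell division or ubiquitin transfer moved in both directions. Of 10 genes of ubiquitin and protein quality control, Ccnf rose and Spsb3 fell in fl/fl males (5.52% and 3.15% of all genes). In females none of the 10 passed by edgeR or DESeq2. There 3 had an unadjusted p under 0.05 in edgeR, with no share of all genes given. Ccnf, cyclin F, a ubiquitin ligase subunit of the late cell cycle, was at 0.613 to 1.45 CPM (median 1.09) in noncystic, 1.33 to 6.15 CPM (median 2.42) in Pkd1KO and 1.41 to 3.20 CPM (median 1.73) in Pkd1KO+ciliaKO males (1.22, SE 0.23, adjusted p = 0.00160). In females the ranges overlapped, at 0.965 to 1.43 CPM (median 1.33), 1.05 to 2.43 CPM (median 1.58) and 1.04 to 1.65 CPM (median 1.23), with a log2 fold change of 0.17 (SE 0.15, adjusted p = 0.622), or 0.22 without the 2 discordant libraries. Of 5 genes of DNA repair and replication, Chtf18 rose and Eme2 fell in fl/fl males (5.52% and 3.15% of all genes). In females Eme2 alone passed among the 5, as lower (0.532% of all genes). Chtf18, a subunit of a clamp loader of DNA replication, was at 0.654 to 1.14 CPM (median 0.832) in noncystic, 0.778 to 3.12 CPM (median 1.43) in Pkd1KO and 0.757 to 1.69 CPM (median 1.10) in Pkd1KO+ciliaKO males (0.76, SE 0.21, adjusted p = 0.0207). Kifc5b, a kinesin of the spindle, rose by 0.58 (SE 0.14, adjusted p = 0.0122) in fl/fl males. In females Chtf18 was at 0.19 and Kifc5b at 0.08, or 0.16 and 0.18 without the 2 discordant libraries, and neither passed.

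**Figure D5:**
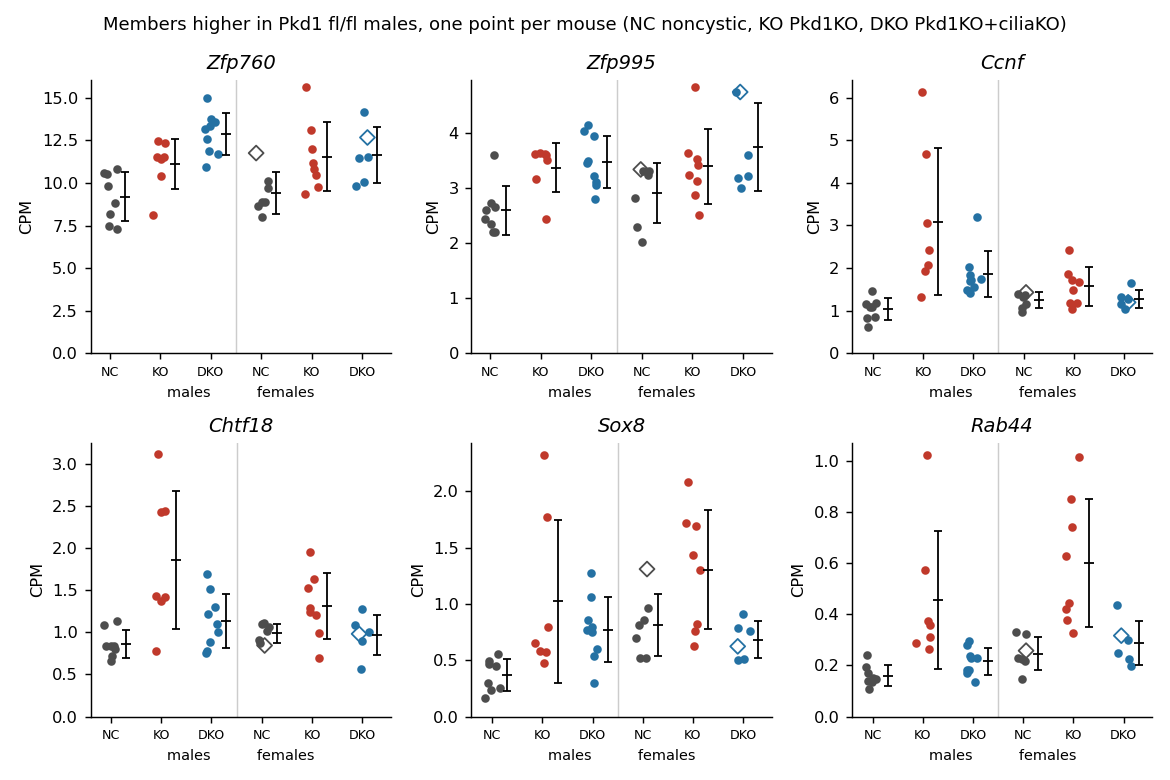
Expression in CPM of 6 members that were higher in fl/fl males, 1 point per mouse in the 6 groups, with bars for the mean and SD and open diamonds for the 2 discordant female libraries. Pkd1KO males reach 6.15 CPM for Ccnf and 1.02 CPM for Rab44, whereas the noncystic males end at 1.45 CPM and 0.242 CPM.

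Among members on none of the lists, Syngr3, a synaptic vesicle protein 88.6 kb above Pkd1, was at 0.203 to 0.345 CPM (median 0.275) in noncystic, 0.115 to 0.249 CPM (median 0.144) in Pkd1KO and 0.0770 to 0.219 CPM (median 0.119) in Pkd1KO+ciliaKO males, with a log2 fold change of -0.97 (SE 0.19, adjusted p = 0.00161) in males and -0.76 (SE 0.23, adjusted p = 0.109) in females, or -0.88 (SE 0.23, adjusted p = 0.0423) without the 2 discordant libraries. Cldn6, a claudin of tight junctions, was at 0.486 to 0.841 CPM (median 0.540) in noncystic, 0.660 to 1.72 CPM (median 0.925) in Pkd1KO and 0.553 to 1.33 CPM (median 0.970) in Pkd1KO+ciliaKO males (0.77, SE 0.18, adjusted p = 0.00901). Prss41, a serine protease, rose by 1.20 (SE 0.28, adjusted p = 0.00810) from a low level in noncystic males, 0.0225 to 0.276 CPM (median 0.119). In females its log2 fold change did not pass (0.69, SE 0.29, adjusted p = 0.241) but did at 1.09 (SE 0.26, adjusted p = 0.0277) without the 2 discordant libraries. In females, Mcrip2 (-0.26, SE 0.06, adjusted p = 0.0467) and AI413582 (-0.55, SE 0.11, adjusted p = 0.0161) also passed in the fl/fl contrast. Mcrip2 passed between Pkd1KO+ciliaKO and noncystic females as well (-0.41, SE 0.07, adjusted p = 0.0209). Cuta passed between Pkd1KO+ciliaKO and noncystic females (-0.24, SE 0.05, adjusted p = 0.0310). Without the 2 discordant libraries these values were -0.30 and -0.58 in the fl/fl contrast, and -0.47 (SE 0.07, adjusted p = 0.00231) and -0.27 (SE 0.05, adjusted p = 0.0143) for Pkd1KO+ciliaKO, and all passed.

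The remaining members that passed in fl/fl males moved in both directions. Among them Armc12 had the largest decrease (-1.17, SE 0.34, adjusted p = 0.0305), and Tmem8 (-0.46), Zfp944 (-0.35), Unkl (-0.34), Bicdl2 (-0.34) and Zfp213 (-0.24) fell by smaller amounts. The zinc finger genes Zfp53 (0.26), Zfp52 (0.35), Zfp983 (0.37) and Zfp820 (0.51) rose, as did Meiob, a protein of meiotic recombination (0.83, SE 0.26, adjusted p = 0.0464). In Pkd1KO against noncystic females, Armc12 was also lower (-2.13, SE 0.57, adjusted p = 0.0468), and Grm4, a metabotropic glutamate receptor, was higher (1.31, SE 0.27, adjusted p = 0.0106). Zfp53 was the 1 member that was higher in Pkd1KO+ciliaKO than in noncystic females (0.39, SE 0.10, adjusted p = 0.0454). The values without the 2 discordant libraries were -2.18 (SE 0.59, adjusted p = 0.0522) for Armc12, which no longer passed, 1.42 (SE 0.28, adjusted p = 0.00828) for Grm4 and 0.44 (SE 0.10, adjusted p = 0.0264) for Zfp53, which was then 1 of 3 members higher in Pkd1KO+ciliaKO females. Flywch2, Abca17, Def6, Bak1, Fahd1, Amdhd2, Uqcc2, Tpsab1, Pigq, Mapk8ip3, Kifc5b, Syngr3, Cldn6, Prss41, Kremen2, Tekt4, Rgs11, Hmga1 and the members of this paragraph are named outside the rule for named genes, after their values were seen.

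The members that differed between Pkd1KO and Pkd1KO+ciliaKO females included Tbc1d24 and Neurl1b, which did not pass in the fl/fl contrast of either sex. Tbc1d24, a Rab GTPase-activating protein family member of vesicle traffic, was at 15.6 to 22.3 CPM (median 18.1) in Pkd1KO and 20.6 to 24.5 CPM (median 23.6) in Pkd1KO+ciliaKO females, a difference of -0.35 (SE 0.08, adjusted p = 0.00911). Neurl1b, a ubiquitin ligase of Notch ligand uptake, was at 61.4 to 83.7 CPM (median 73.8) and 82.2 to 129 CPM (median 94.1), a difference of -0.43 (SE 0.10, adjusted p = 0.00971), with -0.36 (adjusted p = 0.0102) between Pkd1KO and noncystic females. Tbc1d24 was at -0.34 (SE 0.08, adjusted p = 0.0192) and Neurl1b at -0.44 (SE 0.10, adjusted p = 0.0166) without the 2 discordant libraries. Pacsin1 was lower in Pkd1KO than in Pkd1KO+ciliaKO females, with a difference of -0.65 (SE 0.20, adjusted p = 0.0452). Its highest Pkd1KO+ciliaKO value, 1.77 CPM against 1.06 CPM for the next, was that of the discordant replicate 6, and without the 2 libraries the difference was -0.47 (SE 0.18, adjusted p = 0.111) and did not pass. Of the other members that passed there, Kremen2, a co-receptor of the Wnt inhibitor DKK1, was lower in Pkd1KO females (-1.14, SE 0.33), as were Tekt4, a tektin of cilia and flagella (-0.90, SE 0.26), and Rgs11, a regulator of G protein signalling (-0.76, SE 0.23). Hmga1, a chromatin protein of proliferating cells, was higher (0.38, SE 0.12), as was Sox8 (0.93, SE 0.27). None of these last 5 passed without the 2 discordant libraries, with values of -1.01, -0.86, -0.79, 0.38 and 0.91 in the same order.

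The difference between the sexes was tested directly. The effect of fl/fl against fl/+ differed between males and females at the threshold in 0 members and 0 of all 15828 genes (edgeR), with 10 members and 982 genes at an unadjusted p under 0.05. DESeq2 called 0 members, and without the 2 discordant female libraries 0 members passed, with 7 members and 729 genes at an unadjusted p under 0.05. Ccnf had the smallest p (male minus female log2 fold change 1.03, SE 0.28, unadjusted p = 5.55e-04, adjusted p = 0.295), followed by Decr2 (-0.30, SE 0.10, adjusted p = 0.436) and Sox8 (1.05, SE 0.39, adjusted p = 0.561). A member that passed in 1 sex was thus not shown to differ between them. Averaged over genotypes, 90 members differed between males and females (38 higher in males, 52 lower), 48.13% against 50.3% of all genes. The smallest p belonged to Igfals, the acid-labile subunit of the circulating IGF complex, which was at 4.52 to 9.17 CPM (median 6.54) in noncystic males and 12.7 to 27.2 CPM (median 19.6) in noncystic females (male minus female -1.53, SE 0.12, adjusted p = 9.77e-14). Msrb1 was higher in males (0.89, SE 0.08, adjusted p = 1.48e-12) and Fbxl16, an F-box protein, was lower (-0.74, SE 0.08, adjusted p = 1.46e-10). Igfals also fell in fl/fl males (-0.60, SE 0.16, adjusted p = 0.0195).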

How the data were processed

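TRAP RNASeq libraries of 45 mouse kidneys were analysed from 2 tables per sex. The deposited counts were fragments per gene that the authors obtained, per the submitters' processing notes, with fastp 0.20.0, STAR 2.7.9 and featureCounts 2.0.0 on GRCm38.p6. The strand and multimapping settings are not given in the sources used here. The TPM tables, made by the authors for each sex, hold protein-coding genes that reached 6 counts in 20% of its libraries. The study describes all libraries as processed together in one batch. Columns were assigned to groups by the mouse identifiers in the labels.

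Genes of the TPM tables (15991 in males, 15968 in females) were tested on the deposited counts with the edgeR 4.0.16 quasi-likelihood test in R 4.3.3, with TMM scaling and Benjamini-Hochberg adjustment over all genes tested, each sex by itself (threshold, adjusted p of 0.05). Pairwise comparisons used the 2 groups compared, the fl/fl contrast (the mean of both fl/fl genotypes against noncystic) the 3 genotypes of a sex, and the sex interaction all 45 mice over 15828 genes. SE denotes the standard error of a log2 fold change. Levels are CPM scaled by TMM over all 45 mice, and levels of different genes were compared in TPM. Depth was 80874556 to 132958186 counts per library, and the floor was 3 counts. Within groups, 149 pairs of mice all differed by more than counting error (chi-square over its degrees of freedom, 44.5 or more). Gene positions are those of the count tables, and exon overlap was taken from their exon coordinates. Symbols were found for 55141 of 55401 gene identifiers in GENCODE vM21. Promoter sequences are from RefSeq, where Rnps1 had no entry.

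The named members were those past the threshold in both sexes, the 3 with the smallest p in each pairwise comparison, in the sex interaction and between the sexes, the 3 most abundant, the nearest and outermost, and the 2 with the smallest male p of each gene list. The members and the lists were chosen with earlier results of these data known, so counts over them are descriptions and no list was tested. Alternatives were DESeq2 1.42.0 and its size factors, library totals, 2 other filters (none, or at least 10 counts), genes of all classes, the replicate number as a block, limma 3.58.1 (voom with sample quality weights, or log2(TPM + 1)), other sets of members or libraries, and leaving out each mouse. The scripts were tested on simulated data. No supplementary value of the study was used.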

Additional observations from a re-analysis of the deposited data

Results flagged for a closer look

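In the 6 groups of 6 to 9 mice, 210 sets of CPM values of named members were looked through for a mouse far from the rest of its group, and 23 were found. Chance gives about 1 in 20 groups. The values below are the mouse's level with the nearest other mouse of its group.

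Noncystic male replicate 3, which is among the 4 males that stood apart, was found for 4 members. It had the lowest Cuta (53.0 CPM, next 64.8) and the lowest Mettl26 (148.0 CPM, next 240.1), and the highest Tbc1d24 (24.8 CPM, next 16.7) and Zfp995 (3.598 CPM, next 2.73). Among Pkd1KO males, replicate 3 had the highest Rab44 (1.02 CPM, next 0.575) and Tnfrsf12a (54.0 CPM, next 29.7), replicate 4 the lowest Zfp995 (2.45 CPM, next 3.17) and replicate 1 the highest Fkbp5 (218.8 CPM, next 138.9). Pkd1KO+ciliaKO male replicate 9 had the lowest AI413582 (2.44 CPM, next 4.50) and the highest Ccnf (3.20 CPM, next 2.04).

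Among noncystic females, replicate 5, whose Kif3a level went against its label, had the lowest Rnps1 (22.5 CPM, next 31.8). Replicate 3 had the highest Nthl1 (5.66 CPM, next 4.61), Wdr24 (30.6 CPM, next 26.8), Narfl (51.2 CPM, next 41.8) and Flywch1 (78.1 CPM, next 67.9). Replicate 4 had the lowest Fbxl16 (2.83 CPM, next 4.37) and the highest Fkbp5 (258.2 CPM, next 104.5). Pkd1KO female replicate 3 had the highest A930017K11Rik (14.1 CPM, next 9.42) and replicate 4 the lowest Narfl (33.3 CPM, next 40.3). Pkd1KO+ciliaKO female replicate 6, the other library whose Kif3a level went against its label, had the highest Nhlrc4 (3.36 CPM, next 2.12) and Pacsin1 (1.77 CPM, next 1.06). Replicate 3 of that group had the lowest Clcn7 (20.3 CPM, next 24.4) and replicate 1 the highest Fkbp5 (288.1 CPM, next 89.0).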

How the results depend on the processing

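The excess of changed members over the background in the fl/fl contrast, both directions together, was found under every setting of test, scaling and filter tried. It was also found without the discordant females and without the males that stood apart. It did not hold for higher members alone under every setting. DESeq2 gave 16 higher (7.52% of all genes) and 24 lower (4.76%) in males. In females edgeR gave 0 higher (0.526%) and 9 lower (0.532%), and limma on log2(TPM + 1) 2 higher (1.78%) and 4 lower (0.232%). In males the number of changed members stayed within 1.5 times of 36 except with limma on log2(TPM + 1), 20 (background 5.09%). The share of all genes called under the same setting follows each count of this paragraph in parentheses. DESeq2 gave more calls in most pairwise comparisons: 30 (10.3%) and 45 (13.5%) for Pkd1KO and Pkd1KO+ciliaKO against noncystic males, 23 of them shared (4.27%), 6 (7.72%) between the knockouts in males, 22 (8.02%) for Pkd1KO+ciliaKO against noncystic females with 4 shared (0.564%), and 27 (15.7%) between the knockouts in females. Limma voom with sample quality weights gave 29 (9.22%) and 46 (17.5%) with 20 shared (4.72%), 11 (8.69%), 24 (8.5%) and 27 (16.5%) in the same order, 20 in the fl/fl contrast of females (3.07%) and 12 in both sexes (1.86%). Limma on log2(TPM + 1) also gave 11 (6.26%) for Pkd1KO+ciliaKO against noncystic females and 3 in both sexes (0.828%), all 3 genotypes in one fit gave 10 (3.05%) for the former, and genes of all classes gave 5 (0.514%) in the fl/fl contrast of females. Without the 2 discordant female libraries the counts in females were 20 (3.17%) in the fl/fl contrast, with 12 in both sexes (1.89%), 19 (5.8%) for Pkd1KO+ciliaKO against noncystic, 10 (10.4%) between the knockouts and 6 shared (0.507%). Between the knockouts, the share of members was below that of all genes under each of these settings in the sexes they were run for.

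Restricting the members to the 104 without exon overlap left 22 of 36 in the fl/fl contrast of males (8.66% of all genes) and 4 of 9 in females (1.06%), 3 in both sexes (0.682%). Against noncystic males 10 were left for Pkd1KO (6.3%) and 17 for Pkd1KO+ciliaKO (8.89%), 5 of them shared (2.54%), and 1 between the knockouts in males (3.77%). In females 8 were left for Pkd1KO against noncystic (3.34%), 1 of them shared (0.15%), and 7 between the knockouts (11.7%). The fall is by construction, as fewer genes were counted. A window of 2 Mb holds the 39 members within 0.5 Mb of Pkd1 and the 71 from 0.5 to 2 Mb. It left 16 for Pkd1KO+ciliaKO against noncystic males (8.89% of all genes). Against noncystic females it left 9 for Pkd1KO (3.34%) and 3 for Pkd1KO+ciliaKO (2.54%), 1 of them shared (0.15%).

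The replicate numbers did not pair the mice. Over 41 pairs of mice with the same number in 2 groups of a sex, deviations from the group means correlated at -0.371 to 0.483 (median 0.0184), with 15 over 0.1, and 6 mice correlated best with their own number. With the replicate number as a block 30 members (7.29% of all genes) passed in the fl/fl contrast of males and 4 (0.564%) in females, 3 in both sexes (0.335%), 10 (4.78%) for Pkd1KO+ciliaKO against noncystic males with 4 shared (1.39%), 0 (1.06%) between the knockouts in males, 7 (1.84%) and 0 (0.626%) for Pkd1KO and Pkd1KO+ciliaKO against noncystic females with 0 shared (0.0251%), and 2 (3.83%) between the knockouts in females.

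Leaving out 1 mouse at a time gave 27 to 39 members in the fl/fl contrast of males, 2 to 16 in females and 2 to 12 in both sexes. The share of all genes is not given for these fits, so the counts of this paragraph are not set against a background. The pairwise counts ranged from 14 to 22 for Pkd1KO and 15 to 39 for Pkd1KO+ciliaKO against noncystic males (6 to 17 shared), 1 to 3 between the knockouts in males, 11 to 14 for Pkd1KO and 0 to 12 for Pkd1KO+ciliaKO against noncystic females (0 to 3 shared), and 7 to 20 between the knockouts in females. In males the count for Pkd1KO+ciliaKO was 15 without noncystic replicate 6, 16 without noncystic replicate 2 or 7, and 39 without noncystic replicate 3. The shared count in males was 17 without noncystic replicate 3 and 6 without noncystic replicate 7, and that between the knockouts was 1 without Pkd1KO replicate 4 or Pkd1KO+ciliaKO replicate 1, 3 or 8. In females the fl/fl count was 16 without noncystic replicate 5 and 2 to 5 without any of noncystic replicates 1, 2, 3, 4, 6 and 7, Pkd1KO replicates 1, 4, 7 and 8 or Pkd1KO+ciliaKO replicates 2, 3, 4 and 5. The count for Pkd1KO+ciliaKO was 11 without noncystic replicate 1 or 5, 12 without Pkd1KO+ciliaKO replicate 6, and 0 to 3 without noncystic replicates 2, 3, 6 and 7 or Pkd1KO+ciliaKO replicates 2, 3, 4 and 5. The count between the knockouts was 7 to 10 without Pkd1KO replicates 2, 7 and 8 or Pkd1KO+ciliaKO replicates 2 to 6. The cause of these shifts was not tested.

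Of 27 calls of named members in the fl/fl contrast, 11 held under all alternatives and 16 were lost under at least 1. In males these were Fkbp5, Spsb3, Chtf18, Igfals, Pacsin1, Eme2, Flywch1, Rab44, Zfp760 and Zfp995, and in females Mcrip2, Pacsin1, BC003965, A930017K11Rik, Eme2 and AI413582. Of 43 fl/fl values of named members that did not pass, 12 passed under at least 1 alternative. In males these were Mcrip2, Mettl26, Telo2 and Narfl, and in females Decr2, Cuta, Igfals, Msrb1, Hagh, Mettl26, Zfp760 and Spsb3. The difference of the effect between the sexes stayed at 0 members, and 84 to 108 members differed between males and females, under the alternatives run for them. The named members whose fl/fl log2 fold change reversed were uncalled in the sex concerned. In males Hagh was at 0.0465 with library totals, 0.0324 with voom, 0.0168 with log2(TPM + 1), 0.0111 without the 4 males that stood apart, and -0.0405 to 0.0234 when 1 mouse was left out. Msrb1 was at -0.0037 with at least 10 counts, -0.0019 with genes of all classes, -0.0070 with the block, and -0.0722 to 0.0486 when 1 mouse was left out. Neurl1b was at -0.0027 with DESeq2, -0.0028 with its size factors, -0.0017 without a filter, -0.0078 with at least 10 counts, -0.0011 with all classes, -0.0335 with voom, -0.00025 without the 4 males, and -0.0611 to 0.123 when 1 mouse was left out. Ppp2r1a was at 0.0169 with library totals and Tbc1d22b at 0.0123 with voom. In females Tbc1d24 was at 0.00055 with voom and 0.0397 with log2(TPM + 1), Ppp2r1a at 0.0181 and Nthl1 at 0.0324 with the latter. Leaving out 1 female gave -0.0715 to 0.0158 for Nthl1, -0.019 to 0.188 for Rab26 and -0.541 to 0.248 for Fkbp5, whose highest value came without noncystic replicate 4.

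The depth of the libraries limits members such as Abca17 and Rab26, which lie close to the floor of 3 counts. The p-values weigh a difference between groups against the spread between mice within them. The fl/fl contrast has both knockouts in it, so a change in 1 of them alone is averaged. The female fits include 2 libraries whose Kif3a level went against their labels.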
